A study of Mus musculus with 4 samples.

Results

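DNA replication genes encode the proteins that license origins, unwind and copy DNA, load the sliding clamp, supply deoxynucleotides and rebuild chromatin behind the fork. They were taken here as a list of 39 symbols, and all 39 were matched by Ensembl identifier among the 34745 gene IDs of the deposited count table. The table covers 4 RNA-seq libraries of macrophages cultured from C57BL/6 mouse bone marrow. Of these, 2 libraries came from cells transfected with Acly-E14 siRNA and 2 from cells transfected with control siRNA, a small interfering RNA being a short duplex that directs cleavage of a matching transcript. Both groups had also been treated with lipopolysaccharide (LPS), the bacterial cell wall component that activates macrophages, so LPS was shared and not compared. Acly encodes ATP citrate lyase, the enzyme that makes cytosolic acetyl-CoA. The labels spell out neither E14 nor the sex and age of the mice. They do not state whether paired libraries had separate animals or cultures as their source, so each p-value reflects variation among these 4 libraries, possibly technical.

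A cell prepares to copy its DNA in the G1 phase, when the origin recognition complex, CDC6 and CDT1 load the ring-shaped MCM helicase onto origins. In S phase the helicase is activated by CDC45, the GINS complex and MCM10, after which primase and polymerase alpha start each strand and polymerases delta and epsilon extend it on the PCNA clamp. Transcription of many of these genes is controlled by E2F factors, which the retinoblastoma family of proteins holds in check in resting cells. Macrophages in culture divide in response to colony-stimulating factor 1, and LPS is known to halt that division.

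The libraries held between 21023197 and 21837806 counts. Acly, the targeted gene, had 3188 and 3297 counts in the controls and 2585 and 2770 in the Acly-E14 siRNA libraries, a log2 change of -0.35 (SE 0.060, edgeR adjusted p = 0.0086). Leaving out control library 1 removed that call (adjusted p = 0.058). The gene lies on chromosome 11 at 100476353-100528000, minus strand (mm10, GENCODE M21). Of 17 macrophage markers, 17 were tested, 5 rose and 8 fell, and their summed level lay between 10297 and 11126 CPM (counts scaled to the TMM-adjusted library size) in every library. That sum combines opposite moves, since Cd68 fell from a mean of 1877 to 1172 CPM and Cd14 rose from 808 to 1653 CPM, while Lyz2, the most abundant marker, was at 4741 and 4602 CPM and not called. Mrc1 and Cebpa fell to 0.644 and 0.441 of the control level, and Cd33 rose 2.58-fold. Cd68 and Lyz2 are named after their values were seen. Fibroblast and stroma markers were also present, and 13 of 15 rose. Lymphocyte and granulocyte markers were close to absent, with 12 genes summing to between 0.327 and 1.37 CPM and with Cd3e, Nkg7 and Ngp at 0 counts in every library. Among 10 erythroid and megakaryocyte markers, 5 were tested, of which 2 rose and 3 fell. Those that fell were the haemoglobin genes Hba-a1, Hba-a2 and Hbb-bs, with 13 to 43 counts in the controls and 0 or 1 in the others.

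Many replication genes were higher after Acly-E14 siRNA. All 39 had enough counts to be tested, and 18 rose, 2 fell and 19 were not called at an edgeR adjusted p under 0.05. Over all 13108 genes tested, 17.3% were called higher, 15.9% lower and 33.2% in either direction. The median log2 change of the 39 genes was 0.58, beside 0.0027 for all genes tested. At least 2-fold rises were called for 7 of the 39, namely Tk1, Pole, Cdc6, Uhrf1, Rrm1, Pole2 and Mcm3, and for 7.49% of all genes. Both Acly-E14 siRNA libraries lay above both controls in CPM for 32 of the 39 genes and below both for 3, while 4 overlapped. Among all genes tested the corresponding shares were 35.3% above and 35.3% below. Among called genes of the whole table, 52.0% were higher with trimmed-mean (TMM) scaling and 65.8% with library totals alone, which counted 22 of the 39 replication genes as higher and 1 as lower.

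The number of calls depended on single libraries. Without control library 1, 9 of the 39 genes were higher and 1 lower, and without Acly-E14 siRNA library 2, 7 were higher and 0 lower.

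**Figure D1:**
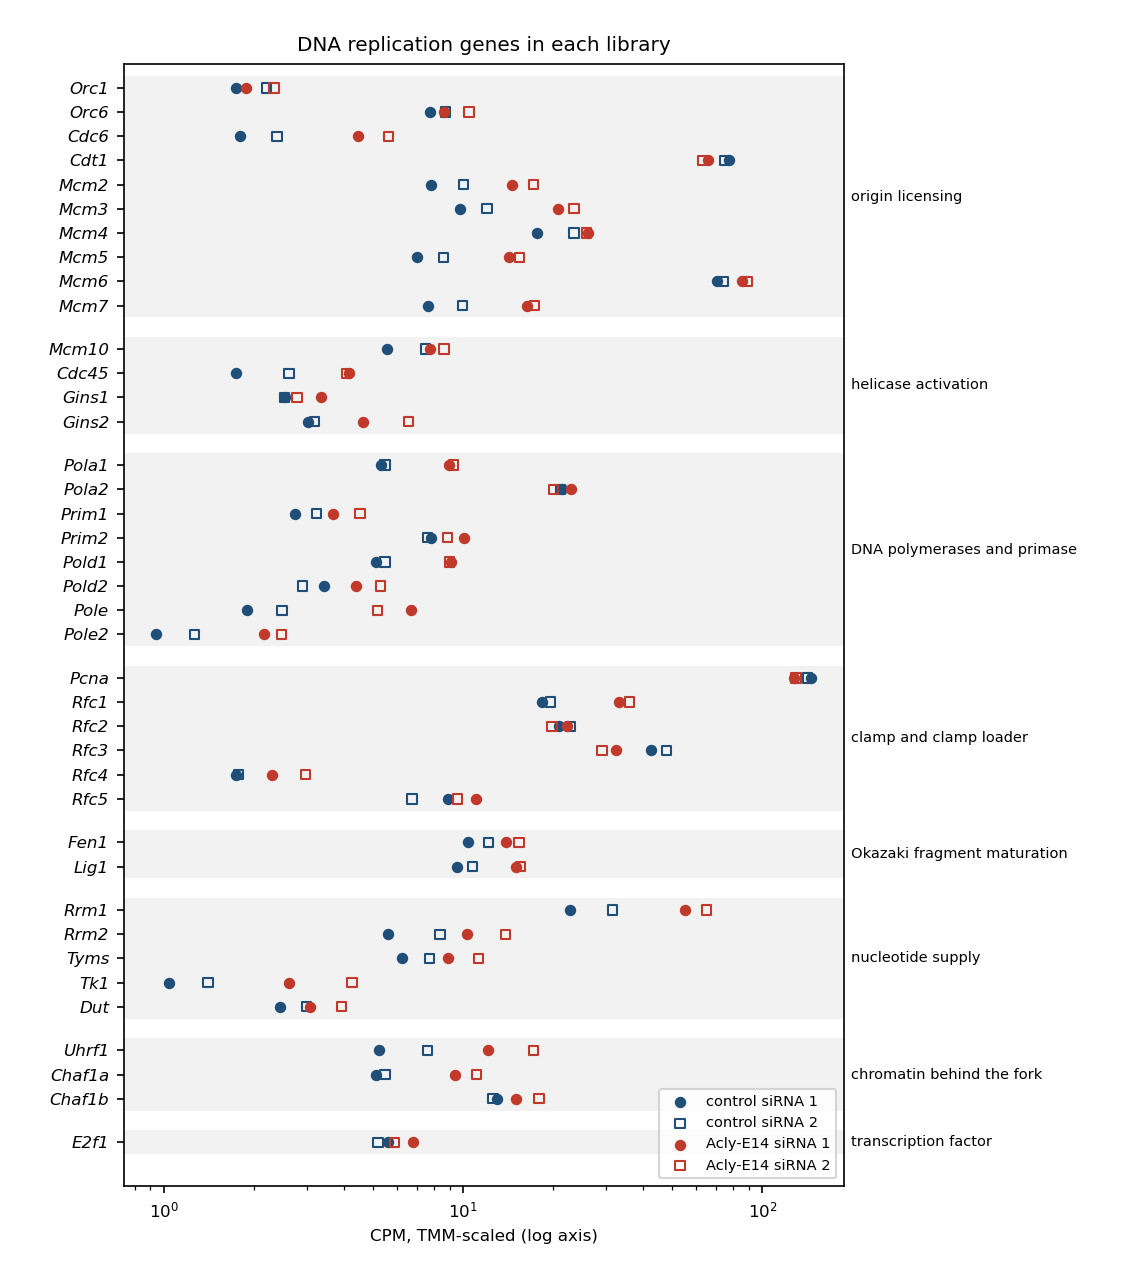
Level of each of the 39 replication genes in each library, in TMM-scaled CPM on a log axis, with genes grouped by role; blue marks are controls and red marks Acly-E14 siRNA libraries, circles library 1 and squares library 2. Red marks lie to the right of both blue marks for 32 genes and to the left of both for Cdt1, Rfc3 and Pcna.

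Because so many of these genes are known E2F targets, their promoter sequences were searched for E2F-type words. RefSeq windows of 300 bases on GRCm38.p6 (mm10), from 250 bases before to 50 after the annotated start, were available for 33 members. The 6 without one in the table used here were Mcm4, Gins1, Gins2, Prim2, Pole and Rfc2. The words searched on both strands were TTTCGCGC, TTTGGCGC, TTTCCCGC and TTTGCCGC, and overlapping matches were counted separately. At least 1 word was found for 13 of the 33 genes (39.4%), against 704 of 27025 genes (2.61%) in the whole promoter table. By window the shares were 33.3% and 2.26%. The whole promoter table also covers genes that were not tested here. Promoter letters do not depend on these libraries, so the gap describes how the list was picked and not a change in expression. CCAAT, the word bound by NF-Y, was found for 19 of the 33 (57.6%) against 41.1% of all genes. Of 16 risen members with a window, 10 held an E2F-type word, as did both members that fell and 1 of 15 that were not called. A match is a description of the letters, and binding was not measured.

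The stretches below are shown for all 13 members that hold a word, in either orientation, whatever their call. They run 5' to 3' along the gene's own strand, and capitals mark the words. First come the 200 bases upstream of the start for 4 genes, where these bases held a word and no annotated exon of the gene. All 4 were risen genes. In Mcm5, 2 words in opposite orientation share 4 bases, and Mcm6 holds such a pair and another word nearer the start.
Mcm5, chr8:75109309-75109508, plus strand: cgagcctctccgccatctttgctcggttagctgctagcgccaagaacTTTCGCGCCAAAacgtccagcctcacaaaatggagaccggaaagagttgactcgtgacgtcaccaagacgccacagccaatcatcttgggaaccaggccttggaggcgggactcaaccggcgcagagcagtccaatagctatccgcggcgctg
Mcm6, chr1:128359706-128359905, minus strand: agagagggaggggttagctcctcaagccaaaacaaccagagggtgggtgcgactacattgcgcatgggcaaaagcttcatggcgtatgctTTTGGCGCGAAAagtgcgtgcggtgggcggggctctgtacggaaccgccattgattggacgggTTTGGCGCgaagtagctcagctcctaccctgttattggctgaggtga
Pola1, chrX:93632156-93632355, minus strand: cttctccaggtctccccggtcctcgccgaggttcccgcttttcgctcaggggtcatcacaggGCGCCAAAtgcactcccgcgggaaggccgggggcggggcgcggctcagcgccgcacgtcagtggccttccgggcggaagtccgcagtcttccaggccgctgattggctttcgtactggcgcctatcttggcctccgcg
Uhrf1, chr17:56304113-56304312, plus strand: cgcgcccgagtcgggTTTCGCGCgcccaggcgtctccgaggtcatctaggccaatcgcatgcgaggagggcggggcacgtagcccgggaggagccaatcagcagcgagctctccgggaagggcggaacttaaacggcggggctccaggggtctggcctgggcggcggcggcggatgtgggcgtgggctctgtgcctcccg

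For the other 9 genes a site of at most 28 bases around the first word is shown, which in Rfc3 takes in its second word. The first 6 rose, Cdt1 and Rfc3 fell, and Orc1 was not called.
Cdc6, chr11:98908003-98908030, plus strand: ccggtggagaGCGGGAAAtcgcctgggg
Mcm3, chr1:20820276-20820303, minus strand: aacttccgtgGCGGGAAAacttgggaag
Mcm7, chr5:138172031-138172058, minus strand: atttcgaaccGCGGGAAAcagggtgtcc
Lig1, chr7:13278842-13278869, plus strand: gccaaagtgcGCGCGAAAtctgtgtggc
Pold1, chr7:44548766-44548786, minus strand: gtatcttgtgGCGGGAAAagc
Pole2, chr12:69228163-69228190, minus strand: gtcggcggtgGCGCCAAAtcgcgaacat
Cdt1, chr8:122568037-122568064, plus strand: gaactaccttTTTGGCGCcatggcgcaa
Rfc3, chr5:151651201-151651228, minus strand: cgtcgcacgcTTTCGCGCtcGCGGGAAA
Orc1, chr4:108579417-108579444, plus strand: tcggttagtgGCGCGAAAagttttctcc

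The risen gene Cdc6 and the fallen gene Rfc3 both hold GCGGGAAA, the same letters that Mcm3, Mcm7 and Pold1 carry, so this word was found in genes of both directions. Only 2 members with a window fell, and a link between the words and the direction of change was not tested.

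**Figure D2:**
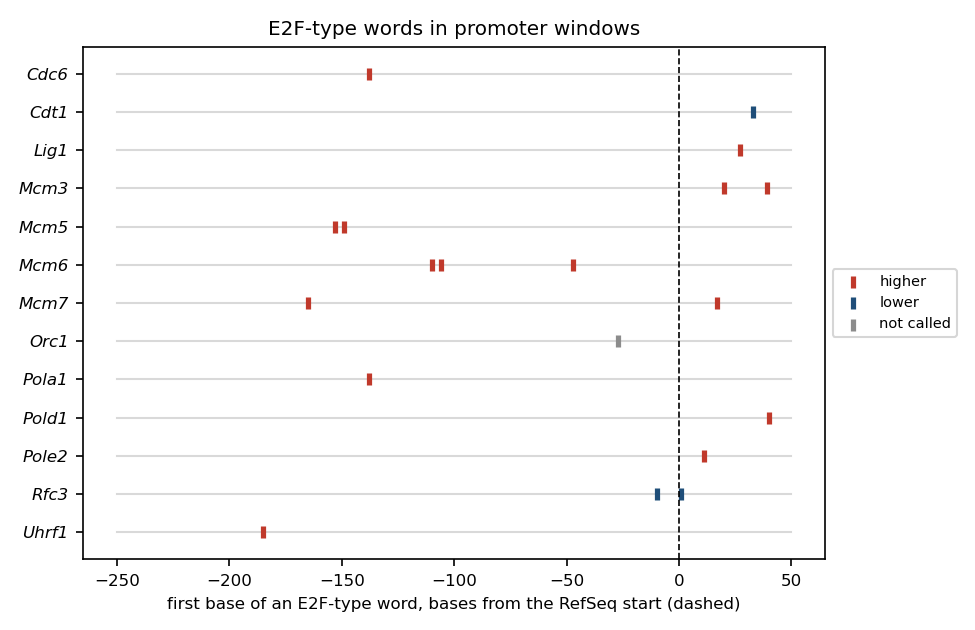
Position of each E2F-type word in the promoter windows of the 13 members that hold one, in bases from the RefSeq start; each grey line is 1 window and each tick the first base of a word, coloured by the call of the gene. The words fall between 185 bases before and 40 bases after the start.

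Origin licensing came first in the order of roles, with 6 of 10 genes higher and 1 lower and a median log2 change of 0.58. CDC6 is the ATPase that brings the helicase to the origin. Cdc6 had 36 and 51 counts in the controls and 97 and 123 in the Acly-E14 siRNA libraries. It rose 2.40-fold (log2 SE 0.25, edgeR adjusted p = 0.013), and the groups did not overlap. The call was lost when control library 1 or Acly-E14 siRNA library 2 was left out. The gene lies on chromosome 11 at 98907801-98923940, plus strand. Its partner in loading, CDT1, moved the other way. Cdt1 had 1561 and 1603 counts in the controls and 1437 and 1381 in the treated libraries, with no overlap. It fell to 0.845 of the control level (log2 -0.24, SE 0.061, edgeR adjusted p = 0.029). The Cdt1 call was lost in 7 of 10 alternative analyses, including each omission of 1 library (adjusted p up to 0.16).

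The MCM ring has 6 different subunits, and 5 of their 6 genes rose. Mcm3 had 196 and 257 counts in the controls against 453 and 514, and rose 2.03-fold (log2 SE 0.14, edgeR adjusted p = 0.0043). Mcm5 had 141 and 184 counts against 311 and 338 (1.90-fold, edgeR adjusted p = 0.0064). Mcm7 had 153 and 213 counts against 357 and 379 (1.91-fold, edgeR adjusted p = 0.0076). In these 3 genes both treated libraries stood clear of both controls, and the call held in all 10 alternatives. Mcm7 shares 557 of its 4426 exon bases with other genes, of which 321 are shared with Ap4m1 on the other strand. Ap4m1 had 172 and 183 counts in the controls and 259 and 261 in the treated libraries. Mcm2 rose 1.78-fold, from 157 and 214 counts to 318 and 375, but its call was lost without control library 1 or Acly-E14 siRNA library 2. Mcm6, the most abundant subunit transcript per length, had 1415 and 1582 counts against 1861 and 1954. Its rise was 1.21-fold (edgeR adjusted p = 0.022), and omitting any 1 library removed the call. Mcm4 had 356 and 501 counts in the controls and 570 and 565 in the others, and its change of 0.33 on the log2 scale was not called (SE 0.14, edgeR adjusted p = 0.12).

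On the FPKM scale, which divides by gene length, the mean control levels ran in the order Mcm6 (12.4), Mcm4 (5.73), Mcm5 (2.28), Mcm3 (1.62), Mcm7 (1.29) and Mcm2 (0.995). In the Acly-E14 siRNA libraries the FPKM means were 14.99, 7.23, 4.33, 3.30, 2.48 and 1.77 in the same order. Mcm3, Mcm7 and Mcm2 had control SDs of 0.24, 0.25 and 0.17 FPKM (n = 2), and each gap between neighbours among them was smaller than the sum of the SDs. Within every library, however, the FPKM values of these genes ran in the same order. The gene lengths behind these values came from the deposited FPKM and equalled the merged GENCODE exons for 1 of the 39 genes, with ratios from 0.346 (Pola2) to 2.89 (Fen1), so the order between genes is approximate.

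Orc1 and Orc6 encode subunits of the origin recognition complex. Orc1 was among the least abundant members, with 35 and 47 counts in the controls and 41 and 51 in the treated libraries, and the groups overlapped (log2 0.09, SE 0.27). Orc6 had 156 and 187 counts against 189 and 229, also with overlap in CPM (log2 0.21, edgeR adjusted p = 0.33).

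Of the 4 genes of helicase activation, 2 rose. CDC45 and GINS join the MCM ring to form the active helicase. Cdc45 had 35 and 56 counts in the controls and 91 and 89 in the treated libraries (1.88-fold, log2 SE 0.26, edgeR adjusted p = 0.040). Gins2 had 61 and 68 counts against 101 and 144 (1.80-fold, edgeR adjusted p = 0.037). The treated libraries lay above the controls for both genes, and both calls were lost in 4 of 10 alternatives. Gins2 shares 2758 of its 4097 exon bases with Gse1 on the other strand, so its reads are uncertain. In all, 14 members share exon bases with another gene, among them Cdc45 (209 bases), Pole2 (245 bases) and Rfc4 (194 bases). The labels' protocol names both a kit that marks strand and a second kit, and whether the counting used strand is not stated there. Gins1 (log2 0.28) and Mcm10 (log2 0.32) were higher in both treated libraries but not called, with edgeR adjusted p of 0.38 and 0.23.

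The polymerase and primase genes had the largest median change of the groups that hold more than 5 genes, 0.69 on the log2 scale, with 4 of 8 higher and 0 lower. Polymerase epsilon copies the leading strand. Pole, its catalytic subunit, had 38 and 53 counts in the controls and 146 and 113 in the treated libraries. It rose 2.70-fold (log2 SE 0.24, edgeR adjusted p = 0.0083), a call kept in all 10 alternatives. Pole lies on chromosome 5 at 110286306-110337474, plus strand. Its accessory subunit gene Pole2 had 19 and 27 counts against 47 and 54 and rose 2.08-fold (edgeR adjusted p = 0.036). At these counts the Pole2 call was lost on leaving out any 1 library and without a filter on low counts. Polymerase delta, which copies the lagging strand, followed through its catalytic subunit, and Pold1 rose 1.71-fold from 103 and 117 counts to 199 and 197 (edgeR adjusted p = 0.0096). Pold2, an accessory subunit, had 69 and 62 counts against 96 and 116 and missed the threshold (log2 0.62, SE 0.21, edgeR adjusted p = 0.066).

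Polymerase alpha and primase form one complex of 4 subunits, which lays down the primers. Only Pola1, the catalytic subunit, was called, and it rose 1.69-fold from 107 and 117 counts to 196 and 203 (log2 SE 0.13, edgeR adjusted p = 0.0097). Its partner Pola2 had 431 and 451 counts in the controls and 500 and 438 in the others, and the groups overlapped (log2 0.01, SE 0.10). The primase genes Prim1 and Prim2 had log2 changes of 0.46 and 0.30 and edgeR adjusted p of 0.16 and 0.14. The calls of Pola1 and Pold1 were lost without Acly-E14 siRNA library 2 (adjusted p = 0.064 and 0.056). The difference in change between subunits of a complex was not tested.

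The clamp and its loader held members of both directions. PCNA is the ring that tethers the polymerases, and its gene was the most abundant member per length. Pcna had 2925 and 3017 counts in the controls and 2786 and 2831 in the treated libraries. Both treated libraries lay below both controls in CPM, but the log2 change of -0.16 was not called (SE 0.053, edgeR adjusted p = 0.069), while DESeq2 called it lower. Reads of Pcna are hard to place, because the processed pseudogene Pcna-ps2 (chromosome 19) is 99.2% identical to its transcript over 781 bases. Pcna-ps2 was itself counted, with 1819 and 2093 counts in the controls and 1576 and 1622 in the others, and fell to 0.777 of the control level (edgeR adjusted p = 0.010). Per length it stood at 74.9 FPKM in the controls, above the 40.8 FPKM of Pcna.

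The RFC complex opens the clamp and closes it around DNA. Rfc1, the large subunit, had 370 and 418 counts in the controls and 723 and 788 in the treated libraries. It rose 1.82-fold (log2 SE 0.092, edgeR adjusted p = 0.0024), with no overlap and no alternative that removed the call. Rfc3, a small subunit, went the other way, with 855 and 1021 counts in the controls and 706 and 637 in the treated libraries. It fell to 0.680 of the control level (log2 -0.56, SE 0.097, edgeR adjusted p = 0.0094), and of the 10 alternatives only the omission of Acly-E14 siRNA library 2 removed the call (adjusted p = 0.052). Rfc3 lies on chromosome 5 at 151642756-151651242, minus strand. Rfc2 had 421 and 487 counts against 487 and 433, overlapped between groups and changed sign between scalings (log2 -0.06 with TMM, 0.04 with library totals). Rfc4 (log2 0.58, 35 and 38 counts against 50 and 65) and Rfc5 (log2 0.40) were above both controls in both treated libraries and were not called. Rfc2 shares 952 exon bases with Lat2 and Rfc5 shares 499 with Wsb2, each on the other strand and each with a larger count than the member. Lat2 had 1735 and 1663 counts in the controls and 2598 and 2387 in the treated libraries.

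**Figure D3:**
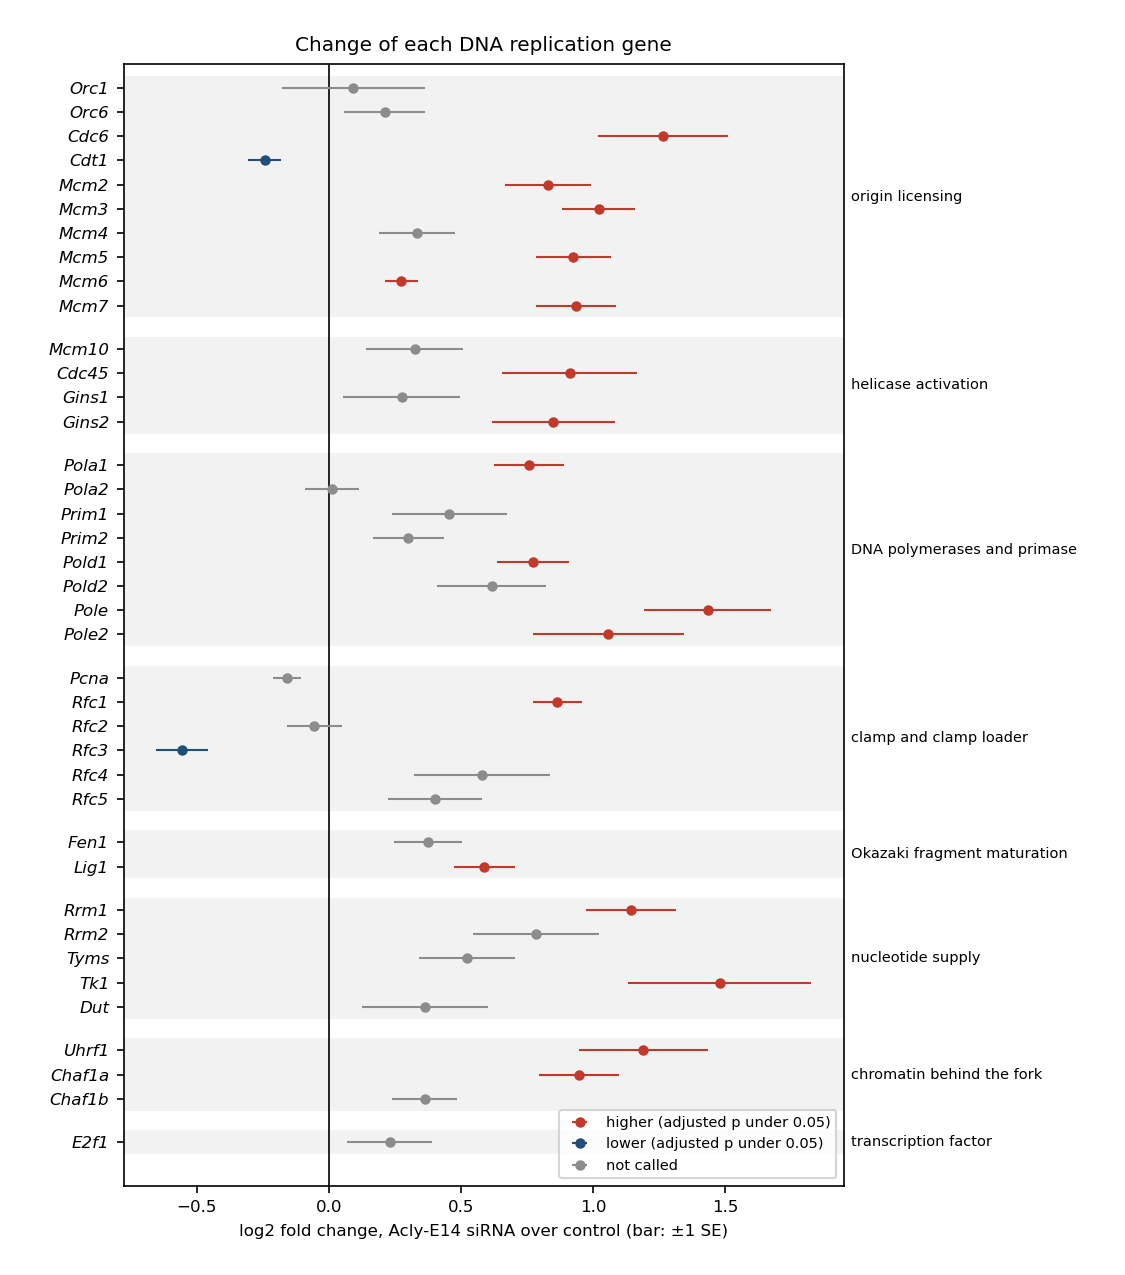
Log2 fold change of each replication gene, Acly-E14 siRNA over control, from the edgeR fit of all genes, with bars of 1 SE and genes grouped by role; red is called higher, blue called lower and grey not called. The clamp loader genes spread from -0.56 (Rfc3) to 0.86 (Rfc1), while the 5 nucleotide supply genes all lie above 0.

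FEN1 trims the flaps of Okazaki fragments and DNA ligase I seals them. Lig1 had 192 and 230 counts in the controls and 328 and 340 in the treated libraries and rose 1.504-fold (log2 SE 0.11, edgeR adjusted p = 0.013). Omitting control library 1 or Acly-E14 siRNA library 2 removed the call. Fen1 had 209 and 260 counts against 304 and 336, without overlap, and missed the threshold (log2 0.38, edgeR adjusted p = 0.070). Most of its exon bases, 2039 of 2422, are shared with genes on the other strand. The main one, Gm10143, had at most 1 count in any library.

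All 5 nucleotide supply genes were higher in both treated libraries than in both controls, and 2 of them passed the test. Ribonucleotide reductase makes deoxynucleotides, with RRM1 as its large and RRM2 as its S phase small subunit. Rrm1 had 457 and 676 counts in the controls and 1200 and 1425 in the treated libraries. It rose 2.21-fold (log2 SE 0.17, edgeR adjusted p = 0.0058), a call kept in all 10 alternatives, and its mean FPKM in treated libraries, 15.01, was close to that of Mcm6. Rrm1 lies on chromosome 7 at 102441695-102469771, plus strand. Rrm2 had 113 and 179 counts against 225 and 303, and its 1.72-fold difference missed the threshold (log2 SE 0.24, edgeR adjusted p = 0.0502). Rrm2 was called higher in 6 of 10 alternatives, including the fit with a replicate block (adjusted p = 0.0079) and DESeq2 (adjusted p = 0.012), and its adjusted p over the 10 ran from 0.0079 to 0.22. Thymidine kinase 1 salvages thymidine, and Tk1 had 21 and 30 counts in the controls and 57 and 93 in the treated libraries. Its 2.79-fold rise was the largest by fold of the 39 genes (log2 SE 0.35, edgeR adjusted p = 0.023), but omitting either control, or Acly-E14 siRNA library 2, removed the call. Tk1 lies on chromosome 11 at 117815526-117826092, minus strand. Tyms, which makes thymidylate, and Dut, which removes dUTP, had log2 changes of 0.52 and 0.36 and were not called (edgeR adjusted p = 0.073 and 0.29).

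Chromatin genes of the fork were higher as well, with 2 of 3 called and a median of 0.95. UHRF1 reads hemimethylated DNA and recruits the maintenance methyltransferase. Uhrf1 had 105 and 162 counts in the controls and 264 and 376 in the treated libraries and rose 2.28-fold (log2 SE 0.24, edgeR adjusted p = 0.015), again a call lost without control library 1 or without Acly-E14 siRNA library 2. The CAF-1 complex places histones on new DNA. Its large subunit gene Chaf1a had 103 and 117 counts against 205 and 242 (1.93-fold, edgeR adjusted p = 0.0072), although 4648 of its 8854 exon bases are shared with Ubxn6 on the other strand. Ubxn6 had 834 and 766 counts in the controls and 992 and 856 in the treated libraries. Chaf1b stood at 13 and 12.6 CPM against 15 and 17.9 CPM and was not called (log2 0.36, edgeR adjusted p = 0.069). E2f1, the transcription factor among the members, had 113 and 111 counts against 148 and 129 (log2 0.23, edgeR adjusted p = 0.32).

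Processed pseudogenes other than Pcna-ps2 also resemble members. Gm5487 is 97.7% identical to the Mcm7 transcript over 2157 bases, Gm5648 98.3% to Uhrf1 over 1590 bases and Gm9430 95.2% to Cdc6 over 1528 bases. Shorter stretches match Rfc5 (Gm12870, 96.2% over 1020 bases) and Rrm2 (Gm48455, 95.5% over 419 bases), and a part of Tyms matches repeats in several other transcripts. The deposited counts have no entry for these 5 pseudogenes. How reads that fit both copies were assigned is not given in the sources used here, so the values of these members are uncertain to that extent.

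The changes were also set beside the level of each gene. This split was chosen after the values were seen, and both of its axes contain the control level, so it is given as a description. Among the 10 members with the highest control FPKM (2.28 to 40.8), 3 rose and 2 fell, with a median log2 change of 0.11. Among the other 29 (0.159 to 2.09 FPKM), 15 rose and 0 fell, with a median of 0.76. The abundant members Pcna, Cdt1, Rfc3, Pola2 and Rfc2 had log2 changes between -0.56 and 0.01, whereas Rrm1 was abundant and rose. These FPKM levels rest on the implied lengths, which for Pola2 and Rrm1 were 0.346 and 0.363 of the merged exons. As the abundant genes dominate a sum, the 39 genes together made up 595 and 637 CPM in the controls and 726 and 764 CPM in the treated libraries.

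**Figure D4:**
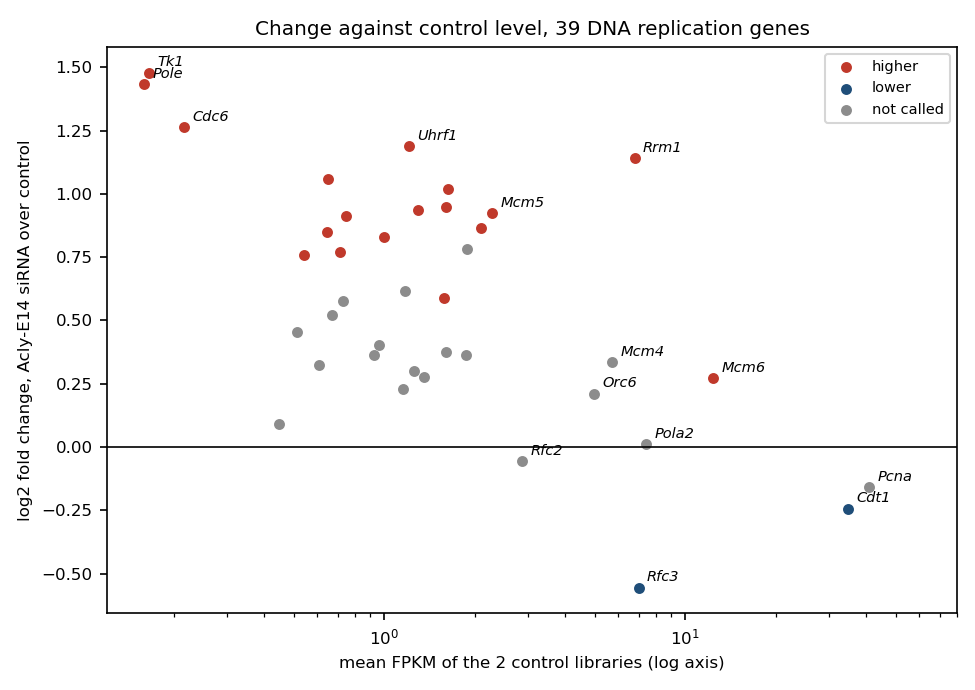
Log2 fold change of each replication gene against its mean FPKM in the 2 control libraries (log axis); red is called higher, blue called lower and grey not called. The 3 members with the largest rises, Tk1, Pole and Cdc6, are also the 3 with the lowest control FPKM, and Cdt1 and Rfc3 lie among the 10 most abundant.

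Libraries of one group also differed in these genes. In CPM, 30 of 39 members were higher in control library 2 than in control library 1, and 27 were higher in Acly-E14 siRNA library 2 than in library 1, against 50.6% and 49.9% of all genes tested. The median of log2(CPM + 1) over the 39 genes was 2.86 and 3.10 in the controls and 3.47 and 3.59 in the treated libraries, so the groups did not overlap. Fibroblast and stroma markers summed to 2526 and 3647 CPM in the controls and to 5759 and 7136 CPM in the treated libraries, the same order of libraries. Their part in the differences between replication genes was not tested. All 15 were counted in the controls, and Col1a1 had 3714 and 6302 counts there against 18229 and 23505. In RNA from a whole culture, more dividing cells or another cell type cannot be told apart from more RNA per cell.

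**Figure D5:**
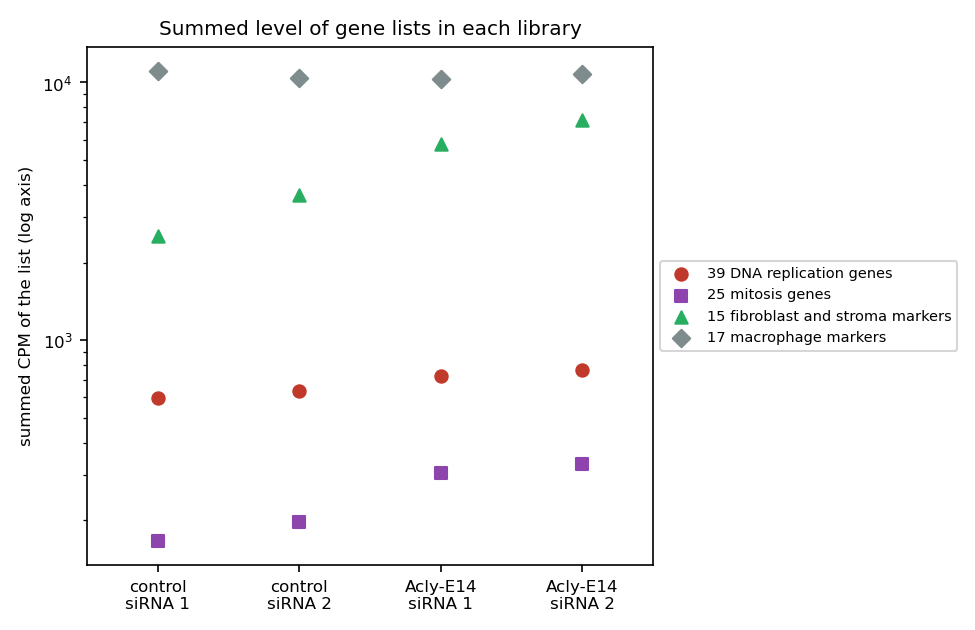
Summed CPM of 4 gene lists in each library, on a log axis. The replication genes run from 595 to 764 CPM and the fibroblast and stroma markers from 2526 to 7136 CPM in the same order of libraries, while the macrophage markers sum to between 10297 and 11126 CPM, a sum over 8 genes that fell, 5 that rose and 4 not called.

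Other genes of the replication machinery were counted from a wider list. Of 45 further replication factors, 8 rose, 2 fell and 35 were not called, with a median log2 change of 0.14. The share that rose was close to the 17.3% called higher among all genes tested, where 15.9% were lower. Dnmt1, the maintenance DNA methyltransferase that UHRF1 recruits, rose 1.26-fold (edgeR adjusted p = 0.013) and the polymerase delta subunit gene Pold4 1.55-fold. Top1, the topoisomerase that relieves supercoils, and Mcm9, a relative of the MCM ring genes used in repair, fell to 0.792 and 0.771 of the control level. Of 19 further genes of deoxynucleotide supply, 8 rose and 5 fell, with a median of 0.33. Ctps, CTP synthase, had 334 and 487 counts in the controls and 1056 and 1318 in the treated libraries and rose 2.75-fold (edgeR adjusted p = 0.0033). Cad, which starts pyrimidine synthesis, rose 1.96-fold, Shmt2, a mitochondrial source of one-carbon units, 1.37-fold and Nme2, a nucleoside diphosphate kinase, 1.23-fold. The 5 that fell were Ctps2, the second CTP synthase gene (to 0.711 of the control level), Dck, Cmpk1, Mthfd2 and Samhd1. These 5 are named after their values were seen.

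Among E2F factors and their partners, 14 of 16 listed genes were tested, 3 rose and 2 fell, with a median log2 change of 0.030. These counts were near the shares over all genes tested, 17.3% called higher and 15.9% lower. E2f5 had 736 and 766 counts in the controls and 511 and 522 in the treated libraries and fell to 0.652 of the control level (edgeR adjusted p = 0.0037). E2f7 had 15 and 43 counts in the controls and 109 and 88 in the treated libraries. It rose 3.23-fold (log2 SE 0.42, edgeR adjusted p = 0.028). Lin54, the DNA-binding subunit of the DREAM complex, rose 2.05-fold. The other gene that fell, Lin9 of the same complex, was at 0.765 of the control (edgeR adjusted p = 0.041) and is named after its values were seen. E2f8 rose 1.61-fold (edgeR adjusted p = 0.014), but omission of control library 1 or of either Acly-E14 siRNA library removed the call. The list of S phase cyclins, kinases and their regulators, inhibitors included, had 7 of 14 higher and 2 lower, with a median of 0.51. Ccnd1, Ccnd3, Ccnd2 and Cdk4, the cyclins and kinase that inactivate the retinoblastoma protein, rose 5.60-fold, 3.26-fold, 1.52-fold and 1.87-fold. The 2 that fell were the cyclin gene Ccne1 and the inhibitor gene Cdkn1c, to 0.811 and 0.697 of the control level (edgeR adjusted p = 0.024 and 0.0077). Among those called higher was the inhibitor gene Cdkn2c, at 1.79-fold. Ccne1, Cdkn1c and Cdkn2c are named after their values were seen. Mitosis genes, which act after replication, had 22 of 25 higher and 0 lower, with a median of 1.13. Mki67, the proliferation marker with the smallest p of the list, had 621 and 700 counts in the controls and 1240 and 1225 in the treated libraries and rose 1.77-fold (edgeR adjusted p = 0.0016). The mitotic kinase gene Plk1 rose 3.09-fold, the spindle kinesin gene Kif2c 3.12-fold and Birc5, which encodes survivin, 2.53-fold. Differences between lists were not tested.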

How the data were processed

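Raw counts per Ensembl gene and FPKM values were deposited by the authors, per the file headers. The submitters' processing notes name HISAT2, StringTie 1.3.0, edgeR and mm10. The counter and gene annotation were not given in the sources used here. A further value column, 1 in all, had no replicate number and was left out. FPKM was recomputed from the counts, TMM-scaled totals and the lengths implied by the deposited FPKM. The limma alternative instead used FPKM on library totals without TMM factors. Symbols matched 34267 of 34745 IDs.

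The test was edgeR 4.0.16 (R 4.3.3), with filterByExpr at a minimum count of 10, TMM, the quasi-likelihood F test and no covariates. Calls used Benjamini-Hochberg adjusted p under 0.05 across 13108 genes, and SEs are those implied by the F statistic. For 2 against 2 libraries the smallest exact two-sided permutation p is 0.333. The members and all lists were chosen with earlier results of these data known. Every member is named, with up to 4 genes of smallest p per other list. Cell markers at 0, neighbouring genes and near copies are named beside that rule. Alternatives were a replicate block, omission of each library, DESeq2 size factors, library totals, DESeq2 1.42.0, no low-count filter, limma 3.58.1 on log2(FPKM + 1) and an adjusted p under 0.1. The fit was tested on simulated data, where 19 of 100 log2 changes of size 0.5 and 65 of 100 of size 1 were called. A gene not called is therefore not shown to be unchanged. Near copies were searched with blastn 2.17.0 (at least 95% identity over 300 bases).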

Additional observations from a re-analysis of the deposited data

How the results depend on the processing

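Of 390 values of single replication genes under 10 alternatives, 331 kept direction and call. Of the 20 called members, 7 (Mcm3, Mcm5, Mcm7, Pole, Rfc1, Rrm1 and Chaf1a) were called in the same direction in all 10, and 13 lost the call in at least 1 (adjusted p between 0.052 and 0.21). Over the omissions of 1 library the replication genes called ranged from 7 to 17, with 7 to 16 higher and 0 to 1 lower, and all genes called from 2088 to 3215, with 1045 to 1815 higher and 982 to 1400 lower. With library totals, no filter on low counts or limma on log2(FPKM + 1), 1 replication gene was called lower. Limma was run on FPKM from library totals without TMM factors. It also called 1389 of all genes lower and gave a median log2 change of the replication genes of 0.34. The median was between 0.47 and 0.69 in the other settings. Signs changed only for Orc1, Pola2 and Rfc2, none of them called. Over the omissions of 1 library, Orc1 ranged from -0.071 to 0.27, Pola2 from -0.085 to 0.11 and Rfc2 from -0.14 to 0.028, and Rfc2 was at 0.035 with library totals and 0.026 with limma. Causes were not tested. With a replicate block, 23 replication genes were called, 21 higher and 2 lower, Fen1, Rrm2 and Tyms being added, and 4896 of all genes. Same-numbered libraries deviated together only weakly (r = 0.19 across genes), and the labels do not say that a number marks a shared source.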

Other observations

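Genes of DNA repair and sister chromatid cohesion, which act at or behind the fork, were counted from lists written after the replication genes had been seen. Of 28 repair and checkpoint genes, 7 rose, 3 fell and 18 were not called, with a median log2 change of 0.35. Over all genes tested, 17.3% were called higher and 15.9% lower. Fancd2, of the Fanconi anaemia pathway, had 9 and 10 counts in the controls and 30 and 53 in the Acly-E14 siRNA libraries and rose 4.11-fold (edgeR adjusted p = 0.016). Brca1, of homologous recombination, rose 1.81-fold. The checkpoint kinase gene Atm went the other way, from 3788 and 3439 counts to 2541 and 2420, and fell to 0.650 of the control level (edgeR adjusted p = 0.0048).

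Among cohesin genes, 5 of 12 were lower, 1 was higher and 6 were not called, with a median of -0.16. The shares over all genes tested were 15.9% lower and 17.3% higher. Rad21, the subunit that closes the cohesin ring, had 6967 and 7768 counts in the controls and 4378 and 4237 in the treated libraries and fell to 0.555 of the control level (edgeR adjusted p = 0.00084). Stag2 and Stag1, the alternative ring-bound subunits, fell to 0.717 and 0.786, and Smc1a rose 1.22-fold. The part of the risen fibroblast and stroma markers (13 of 15) in these changes was not tested.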
